A study of Mus musculus with 10 samples.

Results

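The 40 genes described here drive the cell cycle, copy the DNA or sense its damage: G1 cyclins and their kinases, inhibitors of those kinases, replication licensing and S phase genes, E2F factors, genes of G2 and mitosis, and p53 targets with Myc. They are a list of names set by role, drawn up with earlier results of these data known, and all 40 are among the 55401 genes counted. Their RNA was measured in livers of 5 wild-type (WT) mice and 5 Thrb hep-/- mice. In Thrb hep-/- mice the gene for thyroid hormone receptor beta is removed from hepatocytes by crossing Thrb-loxP/loxP mice with mice that carry Cre under the Afp promoter, which is active in fetal hepatoblasts. The labels give the tissue as liver and the strain as C56Bl6/J (C57Bl6/J in the titles) for both groups, and list no treatment. The study's methods give sex and age for bought wild-type mice of an injection experiment, and no source used here ties a sex, age or time of collection to the mice of these libraries.

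A cell that enters the cycle first builds D cyclins, which activate Cdk4 and Cdk6 and free E2F factors from the Rb protein, and E2F factors then switch on cyclin E and the genes that license and copy DNA. A later wave of genes, with cyclin B, Cdk1 and the Aurora kinases, carries the cell through mitosis. The transcription factor p53 halts this course after damage, by way of the Cdk inhibitor p21 (Cdkn1a) and other targets, and is itself kept low by its target Mdm2. Most hepatocytes of an adult liver are quiescent and divide only after loss of tissue, and thyroid hormone is known as a mitogen for rodent hepatocytes.

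Total counts ranged from 26477195 to 28590704 per library, at which 3 counts correspond to 0.105 to 0.113 CPM, the count scaled to the library total. Thrb itself measured 33.4, 34.2, 32.5, 33.5 and 32.9 normalized CPM over the WT mice, and the Thrb hep-/- mice had 25.1, 24.9, 28.7, 25.9 and 28.8. It fell from 33.3 ± 0.643 normalized CPM (SD, n = 5) in WT to 26.7 ± 1.93 (SD, n = 5) in Thrb hep-/- livers. Its log2 fold change was -0.32 (SE 0.07, adjusted p = 0.0359 with edgeR's quasi-likelihood test), and the groups did not overlap. Of 8 hepatocyte markers all were detected, with Alb at 60310 normalized CPM in the library where it was lowest. With edgeR 0 of the 8 were past the threshold, and 1 (12.5%) had an unadjusted p below 0.05, against 13.6% of all genes tested. Of 10 acute-phase genes examined, 9 (90%) passed the threshold, against 4.08% of all genes tested. All 10 had a negative log2 fold change, with a median of -1.54. In whole liver, fewer cells of a type and less RNA per cell cannot be told apart.

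The subunits of the MCM helicase, which is loaded on DNA before S phase and unwinds it at the fork, held the 2 lowest log2 fold changes among the 32 of these 40 genes that could be tested (Mcm5 and Mcm6), so the start regions of their genes are shown. Each line is a RefSeq window on GRCm38.p6 from 250 bases before to 50 bases after the transcription start, read 5′ to 3′ on the gene's strand. Capitals mark the letters TTTGGCGC, TTTCCCGC, TTTCGCGC or TTTGCCGC on either strand, which are known binding letters of E2F factors, and overlapping matches run together.
Mcm6 (chr1:128359656-128359955, minus strand): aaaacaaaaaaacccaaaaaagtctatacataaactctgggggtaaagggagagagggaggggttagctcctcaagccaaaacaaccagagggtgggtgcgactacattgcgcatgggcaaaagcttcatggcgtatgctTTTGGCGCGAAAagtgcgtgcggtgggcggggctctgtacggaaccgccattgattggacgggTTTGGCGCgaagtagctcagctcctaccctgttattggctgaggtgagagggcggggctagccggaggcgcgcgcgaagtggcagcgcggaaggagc
Mcm5 (chr8:75109259-75109558, plus strand): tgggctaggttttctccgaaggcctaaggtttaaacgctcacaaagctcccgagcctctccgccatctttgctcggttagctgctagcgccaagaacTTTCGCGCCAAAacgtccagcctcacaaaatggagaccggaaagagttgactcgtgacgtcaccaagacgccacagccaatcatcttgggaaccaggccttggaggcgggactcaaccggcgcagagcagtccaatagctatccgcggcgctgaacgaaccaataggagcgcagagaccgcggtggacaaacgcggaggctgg
Mcm3 (chr1:20820263-20820562, minus strand): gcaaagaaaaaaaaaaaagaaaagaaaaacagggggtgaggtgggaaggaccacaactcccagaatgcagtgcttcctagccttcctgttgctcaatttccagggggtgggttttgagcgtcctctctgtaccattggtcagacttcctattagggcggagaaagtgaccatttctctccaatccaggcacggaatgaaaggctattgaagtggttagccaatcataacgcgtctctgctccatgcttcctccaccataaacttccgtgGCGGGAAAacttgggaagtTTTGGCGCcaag
Mcm7 (chr5:138171834-138172133, minus strand): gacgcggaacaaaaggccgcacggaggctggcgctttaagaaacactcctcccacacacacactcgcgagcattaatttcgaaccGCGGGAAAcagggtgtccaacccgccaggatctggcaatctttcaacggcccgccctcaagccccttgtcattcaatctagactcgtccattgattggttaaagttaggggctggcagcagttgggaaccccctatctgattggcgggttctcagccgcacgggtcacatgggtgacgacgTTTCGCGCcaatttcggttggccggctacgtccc
Mcm2 (chr6:88898731-88899030, minus strand): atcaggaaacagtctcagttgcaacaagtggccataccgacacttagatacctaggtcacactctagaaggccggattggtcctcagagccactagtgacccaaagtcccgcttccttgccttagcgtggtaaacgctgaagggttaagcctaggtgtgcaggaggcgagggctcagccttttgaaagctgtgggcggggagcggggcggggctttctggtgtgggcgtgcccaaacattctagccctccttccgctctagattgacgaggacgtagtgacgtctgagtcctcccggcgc

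Mcm6 held 3 matches, starting 110, 106 and 47 bases before the start, the first pair overlapping on opposite strands. Mcm5 held an overlapping pair at 153 and 149 bases before the start, Mcm3 had matches 19 and 38 bases after it, and Mcm7 had matches 165 bases before and 16 bases after it, 1 of which overlaps a CCAAT box. Mcm2 had none. Windows were found for 31 of the 40 genes, 35 windows in all. The letters stood in 6 of these 35 windows (17.1%), those of Mcm3, Mcm5, Mcm6, Mcm7, Cdk1 and Cdk2, against 744 of all 32851 windows (2.26%). No window was found for Ccnd1, Ccnd2, Ccne2, Cdkn1c, Mcm4, Ccna2, Aurkb, Foxm1 and Myc.

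Other letters were searched on both strands of the same windows. CCAAT stood in 71.4% of the windows of these genes against 37.4% of all windows, and the letters TTTGAA, the CHR element of genes used in mitosis, in 22.9% against 17.9%. Of the 9 genes of G2 and mitosis with a window, 6 held TTTGAA. The p53 half-site stood in 17.1% against 8.36%, in Birc5, Ccng1, Cdkn1a, Gadd45a, Mdm2 and Tyms. The thyroid hormone receptor half-site AGGTCA stood in 17.1% against 16.3%, and its direct repeat (the same letters again after any 4 bases) in 0 of 35 windows and in 5 of all windows. The E-box CACGTG, read by Myc, stood in 11.4% against 7.15%. These matches describe letters only.

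Of the 40 genes, 32 had at least 1 CPM in at least 5 libraries and were tested. At an adjusted p below 0.15, the threshold of the study, Mcm6 fell and Ccnd2 rose, so that 2 of 32 (6.25%) were called, against 4.08% of all 12234 genes tested (2.57% lower and 1.51% higher). Another 5 had an unadjusted p below 0.05, which makes 7 of 32 (21.9%) against 13.6% of all genes (7.41% lower and 6.15% higher): Ccnd2 and Ccnd3 were higher and Mcm4, Mcm5, Mcm6, Mki67 and Mdm2 lower. In 0 of the 32 did the groups not overlap, while 3.64% of all genes tested had groups apart. The signs were even, 16 higher and 16 lower, and the median log2 fold change was 0.02 against 0.00054 over all genes tested.

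**Figure D1:**
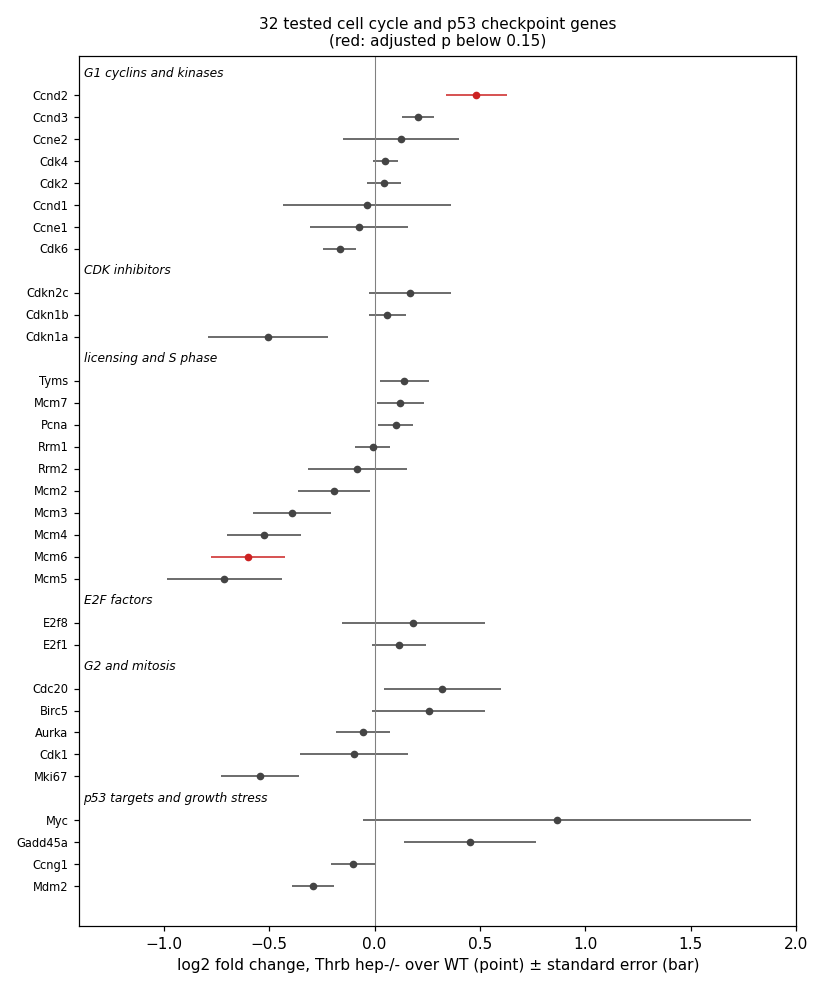
Log2 fold change of Thrb hep-/- over WT livers (x axis, point) with its standard error (bar) for the 32 tested genes, in blocks by role. Ccnd2 at 0.48 and Mcm6 at -0.60 are the 2 red points (adjusted p below 0.15), and Myc has the widest bar, with a standard error of 0.92.

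The D cyclins act in the G1 phase. Ccnd2 (cyclin D2, chromosome 6, 127125162 to 127152193, minus strand) measured 5.64, 5.31, 6.40, 4.49 and 4.30 normalized CPM in WT mice, in the order of their replicate numbers here and throughout, and 8.96, 6.0, 6.28, 7.51 and 7.82 in Thrb hep-/- mice. Only WT mouse 3 reached into the Thrb hep-/- range, above mice 2 and 3 of that group. Ccnd2 rose by a log2 fold change of 0.48 (SE 0.15, adjusted p = 0.146), from 5.23 ± 0.857 to 7.31 ± 1.21 normalized CPM (SD, n = 5 each). The call lies close to the threshold and was lost without any 1 of WT mice 1, 2, 4 and 5 or Thrb hep-/- mice 1, 3, 4 and 5, where the log2 fold change was between 0.40 and 0.53. Of its exon bases, 740 (7.87%) are shared with Gm43126 on the other strand, and reads there were left uncounted.

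Ccnd3 (cyclin D3) measured 32.8, 32.9, 36.4, 32.9 and 29.3 normalized CPM in WT and 39.7, 35.0, 36.2, 38.2 and 40.6 in Thrb hep-/- mice. Again WT mouse 3 alone overlapped the other group. The log2 fold change was 0.21 (SE 0.07, unadjusted p = 0.016, adjusted p = 0.239), which missed the threshold. Ccnd1 (cyclin D1, the D cyclin that mitogens induce in hepatocytes) measured 16.1, 33.1, 33.4, 34.4 and 31.6 in WT and 19.5, 22.7, 38.9, 53.1 and 10.5 in Thrb hep-/- mice. The means were close, and the Thrb hep-/- mice spread over the whole WT range and past both ends of it. Its log2 fold change was -0.04, with a 95% interval from -0.93 to 0.85 that leaves changes of either sign within it. Thus the 3 D cyclins had different values: Ccnd2 passed the test, and Ccnd3 and Ccnd1 did not. Whether they differ from each other was not tested.

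Their partner Cdk4 was the steadiest of the genes, between 28.9 and 31.5 normalized CPM in WT and between 29.6 and 31.8 in Thrb hep-/- livers. Its highest value was 1.10 times its lowest, a ratio at percentile 0.0572 of all genes tested, and its log2 fold change was 0.05 (95% interval -0.08 to 0.18). Cdk6, the other kinase of D cyclins, had a log2 fold change of -0.17 (unadjusted p = 0.056, adjusted p = 0.384). Cdk2, which acts with cyclin E at the entry into S phase, had 0.05, and the E cyclins Ccne1 and Ccne2 had -0.07 and 0.13. Ccne2 measured 0.946, 1.19, 1.72, 1.25 and 1.65 in WT and 1.04, 2.59, 1.03, 1.39 and 1.34 in Thrb hep-/- mice. Mouse 2 of the Thrb hep-/- group stood above the rest, and without it the log2 fold change of Ccne2 was -0.16. Ccne2 shares 17.4% of its exon bases with Ints8 on the other strand, and reads there were left uncounted.

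Among the Cdk inhibitors, Cdkn1a (p21, the main p53 effector of arrest) measured 2.27, 2.69, 3.93, 2.85 and 3.07 normalized CPM in WT and 1.46, 3.64, 1.82, 2.45 and 1.10 in Thrb hep-/- mice. Mice 1, 3 and 5 of the Thrb hep-/- group were below every WT mouse, and mouse 2 was near the top of the WT range. The log2 fold change was -0.50 (SE 0.28, unadjusted p = 0.099, adjusted p = 0.471), within the spread between mice, and it was -0.79 without Thrb hep-/- mouse 2 (adjusted p = 0.151). Cdkn1b (p27, another Cdk inhibitor) lay between 18.4 and 23.6 in WT and between 19.5 and 24.0 in Thrb hep-/- livers, with a log2 fold change of 0.06 (95% interval -0.13 to 0.25). Cdkn2c (p18, an inhibitor of Cdk4 and Cdk6) lay between 3.75 and 6.41 in WT and between 3.99 and 7.45 in Thrb hep-/- livers, with a log2 fold change of 0.17 (95% interval -0.26 to 0.59). Cdkn1c (p57) stayed below the filter, at 0.341 to 0.572 in WT and 0.343 to 1.05 in Thrb hep-/- livers. Of its exon bases, 30.7% are shared with Gm44732 on the other strand, and reads there were left uncounted.

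Licensing genes were the group with the lowest median, -0.14 over its 10 genes, of which 7 were lower and 3 higher. Mcm6 (chromosome 1, 128331590 to 128359664, minus strand, with no exon base shared with another gene) measured 7.68, 6.57, 7.33, 8.36 and 10.3 normalized CPM in WT and 3.58, 5.06, 4.77, 6.82 and 6.29 in Thrb hep-/- mice. Thrb hep-/- mouse 4 exceeded WT mouse 2, and the other Thrb hep-/- mice lay below the WT range. Mcm6 fell by 0.60 on the log2 scale (SE 0.18, adjusted p = 0.13), from 8.05 ± 1.43 to 5.30 ± 1.28 normalized CPM (SD, n = 5 each). The call was lost without any 1 WT mouse and without Thrb hep-/- mouse 1, 2 or 3, with the log2 fold change between -0.66 and -0.49, and DESeq2 gave an adjusted p of 0.0408.

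Mcm5 measured 3.71, 2.52, 3.0, 5.63 and 6.06 in WT and 1.77, 2.02, 2.26, 3.38 and 3.29 normalized CPM in Thrb hep-/- mice. Mice 1, 2 and 3 of the Thrb hep-/- group lay below all WT mice, and mice 4 and 5 among them. The log2 fold change was -0.71 (SE 0.27, unadjusted p = 0.022, adjusted p = 0.271). Mcm4 measured 4.01, 4.62, 5.54, 6.25 and 6.66 in WT and 3.40, 2.7, 4.25, 4.5 and 3.93 in Thrb hep-/- mice. Mice 3 and 4 of the Thrb hep-/- group overlapped WT mouse 1. Its log2 fold change was -0.52 (SE 0.18, unadjusted p = 0.011, adjusted p = 0.196). Mcm3 had -0.39 (unadjusted p = 0.057, adjusted p = 0.386) and Mcm2, between 4.05 and 6.55 in WT and between 3.26 and 5.92 in Thrb hep-/- livers, had -0.19 (95% interval -0.56 to 0.18). Mcm7 had 0.12 (95% interval -0.12 to 0.36), and 12.6% of its exon bases are shared with Ap4m1 on the other strand. So 5 of the 6 subunits had a negative log2 fold change and 1 of them passed the test.

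**Figure D2:**
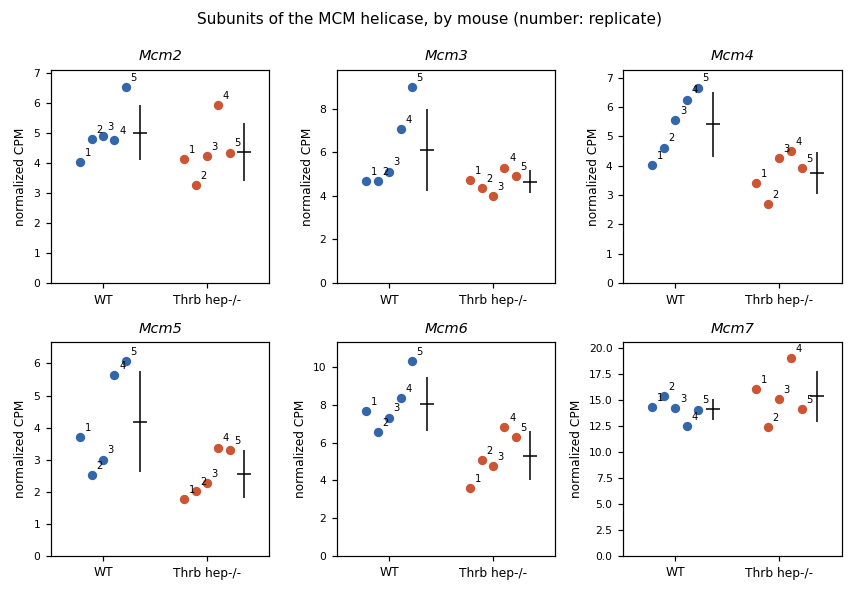
Normalized CPM (y axis, from 0) of Mcm2 to Mcm7 in WT (blue) and Thrb hep-/- (orange) livers, 1 point per mouse with its replicate number, and the mean ± SD (black, n = 5). WT mouse 5 is the highest WT mouse in 5 of the 6 genes and Thrb hep-/- mouse 4 the highest of its group in 6 of 6.

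Most of the subunits shared the mice in which they were highest. WT mouse 5 was the highest WT mouse for 5 of the 6 subunits (Mcm2 to Mcm6), and WT mouse 2 for Mcm7. WT mouse 5 was the highest WT mouse in 21.7% of all genes tested. Thrb hep-/- mouse 4 was the highest of its group for all 6 subunits, against 19.1% of all genes tested. Markers of leukocytes and Kupffer cells, the macrophages of the liver, were also examined. All 6 of the 11 markers that were tested had negative log2 fold changes, 0 past the threshold with edgeR and 3 (Ptprc, Cd68 and Adgre1) at an unadjusted p below 0.05 (50% of the 6, against 13.6% of all genes tested). Their summed level over all 11 ranged from 104.9 to 340.9 CPM in WT livers, with WT mouse 5 the highest and mouse 1 the lowest, and from 119.6 to 244.8 in Thrb hep-/- livers, where mouse 4 had 178.6 and mouse 2 the highest sum. None of the 11 was at 0, and the 5 that were not tested, among them the T cell marker Cd3e and the myeloid marker Itgam, were below the filter. Of the exon bases of Itgam, 68.7% are shared with Gm49368, and reads there were left uncounted. Of 5 cholangiocyte markers 3 were tested, all with negative log2 fold changes, 2 of them (Sox9 and Spp1) at an unadjusted p below 0.05, and the summed level was 24.6 to 46.4 in WT and 24.1 to 28.6 in Thrb hep-/- livers. Endothelial and stellate cell markers had positive values in 7 of 8, 2 of them (Kdr and Dcn) at an unadjusted p below 0.05, with sums of 166.2 to 221.6 and 207.6 to 240.9. Erythroid and platelet markers were negative in 3 of 5 tested, 1 of them (Hba-a1) at an unadjusted p below 0.05. Their sums were 177.6 to 275.3 in WT and 144.0 to 220.7 in Thrb hep-/- livers. Gp1bb was at 0 in every library, and 92.9% of its exon bases are shared with Sept5, where reads were left uncounted. In these 3 lists 0 genes passed the threshold with edgeR, against 4.08% of all genes tested. The shares at an unadjusted p below 0.05 were 66.7%, 25% and 20% of the genes tested, in that order. The part of any of these cells in the values of the MCM genes was not tested. Without WT mouse 5 the log2 fold change of Mcm6 was -0.49 (adjusted p = 0.315).

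The other S phase genes of the set differed by less. Pcna, the sliding clamp of the replication fork, lay between 18.95 and 24.6 normalized CPM in WT and between 21.1 and 24.1 in Thrb hep-/- livers, with a log2 fold change of 0.10 (95% interval -0.08 to 0.28). Rrm1 and Rrm2, the subunits of ribonucleotide reductase, had -0.01 and -0.08, and Tyms, which makes thymidylate, had 0.14. E2f1, an activator of S phase genes, measured 4.69, 4.86, 4.54, 4.10 and 5.73 in WT and 4.45, 5.25, 4.67, 6.06 and 5.52 in Thrb hep-/- mice, and the groups overlapped over most of their range (log2 fold change 0.12, 95% interval -0.16 to 0.39). E2f8, a repressor of the same targets that is known for its part in hepatocyte polyploidy, measured 5.37, 5.35, 8.22, 6.53 and 3.11 in WT and 5.59, 2.93, 5.01, 11.2 and 7.71 in Thrb hep-/- mice. Mouse 4 of the latter was the highest of all, and the log2 fold change of 0.18 turned to -0.10 without that mouse. Of 27 further S phase genes, 21 were tested, 8 were higher and 13 lower. With edgeR 0 of the 21 were past the threshold, against 4.08% of all genes tested. An unadjusted p below 0.05 was found for 3 of the 21, all lower (14.3%, near the 13.6% of all genes tested).

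Most genes of G2 and mitosis had low counts. Of 12 genes, 7 stayed below the filter: Ccna2, Ccnb1, Ccnb2, Top2a, Bub1, Aurkb and Foxm1. Ccnb1 (cyclin B1) had 5 to 18 counts per library, 47 in all WT and 51 in all Thrb hep-/- libraries. Cdk1, its kinase, measured 1.10, 1.12, 1.32, 1.6 and 1.08 normalized CPM in WT and 0.695, 1.24, 1.20, 1.82 and 0.849 in Thrb hep-/- mice, so that the Thrb hep-/- mice lay on both sides of the WT range. Its log2 fold change was -0.10 (95% interval -0.65 to 0.45).

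Mki67, whose protein marks cycling cells, measured 1.74, 2.10, 2.11, 1.56 and 1.68 in WT and 1.22, 1.72, 0.995, 1.26 and 1.13 normalized CPM in Thrb hep-/- mice. Mouse 2 of the Thrb hep-/- group overlapped the WT mice, and the other 4 lay below them. The log2 fold change was -0.54 (SE 0.18, unadjusted p = 0.012, adjusted p = 0.208), and without mouse 2 it was -0.67 with an adjusted p of 0.0903. Top2a, the topoisomerase that separates sister chromatids, had a like order at 1.21, 1.33, 1.32, 0.938 and 1.01 in WT and 0.695, 1.09, 0.652, 0.828 and 0.707 in Thrb hep-/- mice. Only mouse 2 of the Thrb hep-/- group reached the WT range. Top2a had at least 1 CPM in 4 libraries, 1 short of the filter, and an exact permutation test of its level, two-sided, gave p = 0.024. In the edgeR fit without the filter its log2 fold change was -0.56 with an adjusted p of 0.47.

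The remaining mitotic genes had log2 fold changes of both signs. In the edgeR fit without the filter, Ccnb2 had -0.31, Foxm1 -0.47, Aurkb -0.24, Ccna2 -0.11 and Ccnb1 0.02. Their adjusted p values in that fit were between 0.61 and 0.99. Exact permutation tests, two-sided, gave them p = 0.063, 0.21, 0.56, 0.63 and 0.96 in the same order. Bub1, a spindle checkpoint kinase, had 26 counts over the WT and 13 over the Thrb hep-/- libraries (exact permutation test, two-sided, p = 0.048, adjusted p = 0.57 in the edgeR fit without the filter), with 1 to 7 counts per library. Birc5 (survivin) and Cdc20, which activates the anaphase ligase, had positive log2 fold changes of 0.26 and 0.32, with 95% intervals from -0.32 to 0.84 and from -0.28 to 0.92. Aurka had -0.05. Of 27 further mitotic genes only 7 passed the filter, 2 higher and 5 lower, with log2 fold changes between -0.21 and 0.07. With edgeR 0 of the 7 were called or had an unadjusted p below 0.05, against 4.08% and 13.6% of all genes tested.

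**Figure D3:**
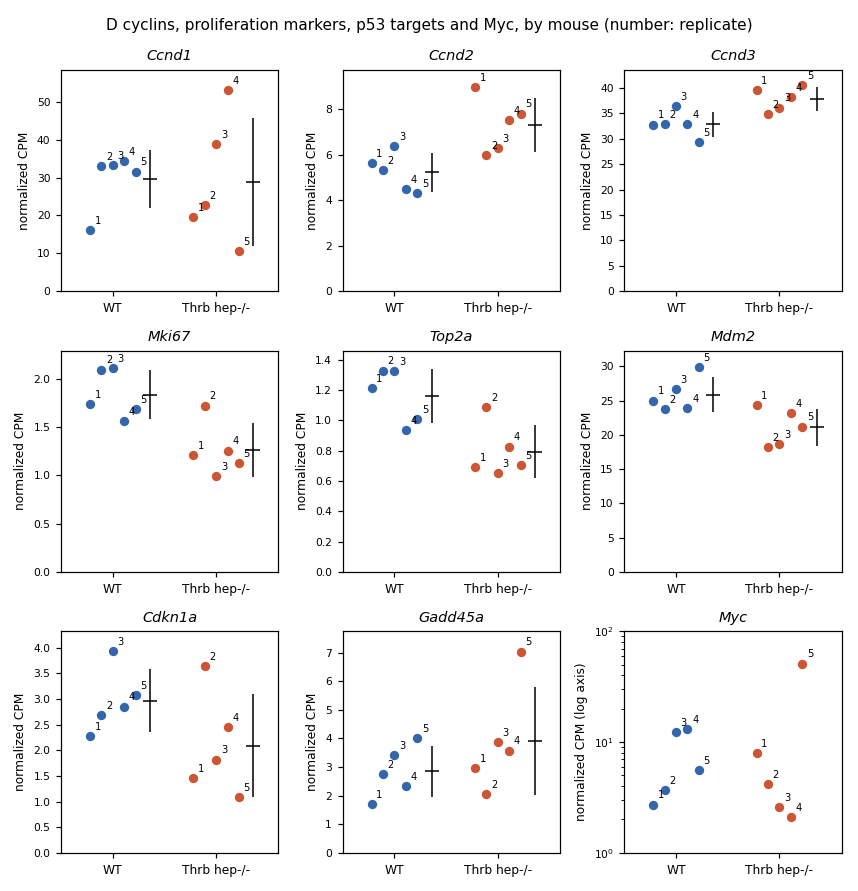
Normalized CPM (y axis, from 0, and a log axis for Myc) of D cyclins, Mki67, Top2a, p53 targets and Myc in WT (blue) and Thrb hep-/- (orange) livers, 1 point per mouse with its replicate number, and the mean ± SD (black, n = 5, not drawn for Myc). Mouse 2 is the highest of the Thrb hep-/- mice for Mki67, Top2a and Cdkn1a, and mouse 5 stands alone for Myc at 51.3.

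Of the p53 targets, Mdm2, the ligase that degrades p53, measured 25.0, 23.8, 26.7, 23.9 and 29.9 normalized CPM in WT and 24.4, 18.2, 18.7, 23.1 and 21.2 in Thrb hep-/- mice. Mouse 1 of the Thrb hep-/- group lay among the WT mice and the other 4 below them. The log2 fold change was -0.29 (SE 0.10, unadjusted p = 0.013, adjusted p = 0.213), and DESeq2 gave an adjusted p of 0.149. Ccng1 (cyclin G1, a p53 target) lay between 27.7 and 32.6 in WT and between 22.9 and 34.9 in Thrb hep-/- livers, with a log2 fold change of -0.10 (95% interval -0.33 to 0.12). Gadd45a, which damage induces, measured 1.70, 2.76, 3.43, 2.34 and 4.0 in WT and 2.95, 2.06, 3.88, 3.58 and 7.04 in Thrb hep-/- mice. The groups overlapped apart from mouse 5 of the Thrb hep-/- group, and the log2 fold change of 0.45 (95% interval -0.23 to 1.14) was 0.13 without that mouse. Gadd45a shares 19.1% of its exon bases with E230016M11Rik on the other strand, and reads there were left uncounted.

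Of 28 other genes of the p53 pathway, 25 were tested, 10 were higher and 15 lower, and 1 was past the threshold, a share of 4% that is near the 4.08% of all genes tested. This was Apaf1, the scaffold of the apoptosome, at 2.91, 3.15, 3.29, 2.66 and 2.51 normalized CPM in WT and 2.05, 2.14, 1.85, 1.72 and 2.23 in Thrb hep-/- mice. The groups did not overlap. Apaf1 fell by 0.54 on the log2 scale (SE 0.14, adjusted p = 0.089), and the call was kept in 6 of 10 fits that left out 1 mouse. Trp53, which encodes p53, had a log2 fold change of 0.03 (95% interval -0.23 to 0.28). Of 20 genes of Rb, E2F and kinase control, 17 were tested and 0 were called by edgeR, against 4.08% of all genes tested. An unadjusted p below 0.05 was found for 1 (5.88%), against 13.6% of all genes tested.

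Myc, the growth factor-induced transcription factor that feeds the G1 machinery, varied more than any other of the 32 genes. It measured 2.72, 3.71, 12.3, 13.1 and 5.58 normalized CPM in WT and 7.95, 4.16, 2.61, 2.12 and 51.3 in Thrb hep-/- mice. A single mouse, number 5 of the Thrb hep-/- group, carried the higher mean. The log2 fold change was 0.86 (SE 0.92, unadjusted p = 0.37, adjusted p = 0.75), and -0.83 without that mouse. Its highest value was 24.2 times its lowest, at percentile 99.6 of all genes tested. Ccnd1 followed with 5.04 (percentile 97.1), Gadd45a with 4.13, E2f8 with 3.83 and Cdkn1a with 3.59, against a median ratio of 1.56 over all genes tested.

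**Figure D4:**
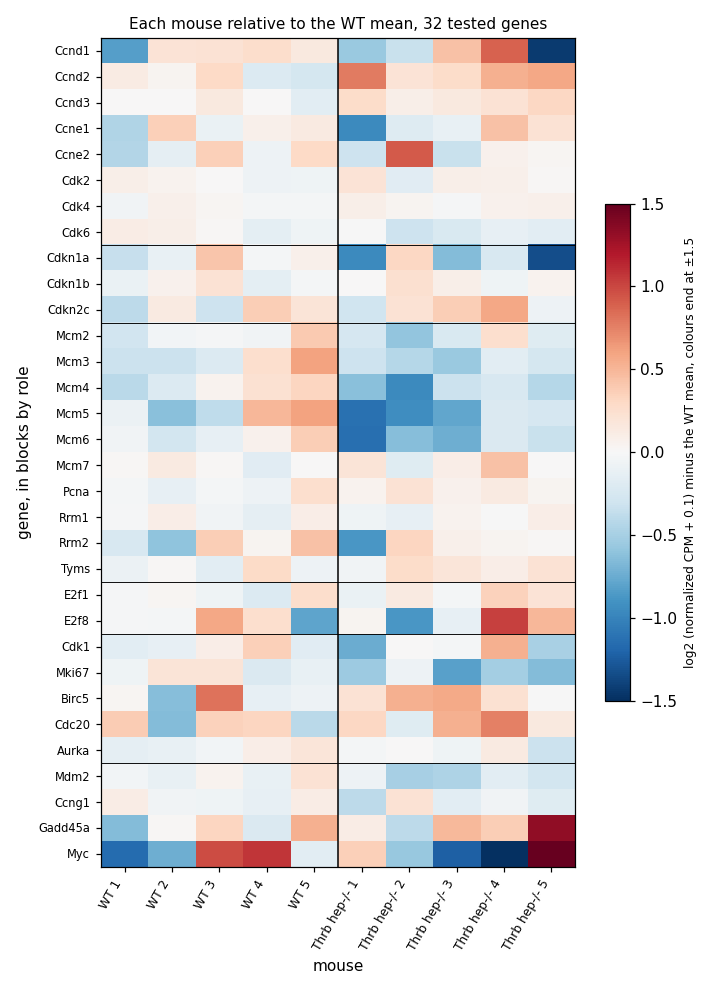
Colour gives each mouse's log2 (normalized CPM + 0.1) minus the mean of the WT mice for the 32 tested genes (rows, in blocks by role), with red above and blue below the WT mean and colours ending at ±1.5. Mcm5 and Mcm6 are blue in all 5 Thrb hep-/- mice, while Ccnd1 and Myc change colour from mouse to mouse within both groups.

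Seen by mouse, WT mouse 5 had the highest WT value in 13 of the 32 genes and Thrb hep-/- mouse 4 the highest of its group in 14 of 32. The genes in which Thrb hep-/- mouse 4 was highest include the 6 MCM subunits, Ccnd1, Ccne1, E2f1, E2f8 and Cdk1. Levels per kilobase of exon also ranked the genes in WT livers. Cdk4 was highest at 9.23 CPM per kilobase, followed by Pcna at 8.63, Ccng1 at 8.58, Ccnd1 at 6.31 and Mdm2 at 5.09. The levels divide by all exon bases, though reads on bases shared with other genes were left uncounted. Such bases make up 19.7% of Cdk4 and 23.4% of Ccnd1, and 0 of Pcna, Ccng1 and Mdm2. Mki67 was the lowest of the 32 at 0.183, below Cdk1 at 0.252 and Birc5 at 0.323.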

How the data were processed

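Liver RNA was sequenced from 5 WT and 5 Thrb hep-/- mice, grouped by the genotype in the labels. The authors mapped the reads with HISAT2 2.2.1 on mm10 (GRCm38) and counted them on Ensembl release 102 with HTSeq 0.9.1, without strand, in union mode and from reads with an alignment quality of 10 or more, per the methods and the submitters' processing notes, which also name edgeR 3.36.0. The libraries kept the strand but the counting did not use it. Reads on exon bases shared by genes on opposite strands could not be assigned to either gene and were left uncounted. Shares not given above include 12.5% of Ccna2, 11.2% of E2f8 and 7.68% of Cdkn1a. The deposited values are raw counts per gene. The deposited table of the authors' own comparison (log2 fold changes, mean log2 CPM, F, p and adjusted p) was not used.

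Counts were tested with the quasi-likelihood F-test of edgeR 4.0.16 in R 4.3.3 (at least 1 CPM in at least 5 libraries, TMM factors, robust settings, Benjamini-Hochberg adjustment over all 12234 genes tested, threshold 0.15). A log2 fold change is Thrb hep-/- over WT. Normalized CPM use TMM-scaled library sizes, and standard errors and 95% intervals come from the fit. Permutation tests enumerated all 252 splits of the mice, whose smallest p is 0.0079. Total counts were 26477195 to 28590704, and a floor of 3 counts covers counting error only. The scripts were tested on simulated data. Alternatives were DESeq2 1.42.0, RLE factors, no filter, filterByExpr, no robust settings, a replicate block and leaving out each mouse.

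Positions and exon overlaps are from GENCODE M21 on GRCm38, another release than the one counted on. Promoter windows are RefSeq's on GRCm38.p6. Values per mouse are given for Thrb, for genes past an adjusted p of 0.15 or an unadjusted p of 0.05, and, in full or as ranges, for Ccnd1, Ccne2, Cdk4, Cdkn1a, Cdkn1b, Cdkn1c, Cdkn2c, Mcm2, Mcm6, Pcna, E2f1, E2f8, Mki67, Top2a, Ccnb1, Cdk1, Mdm2, Ccng1, Gadd45a and Myc; of other lists, genes past 0.15 are named, at most 5 each. The genes and lists were chosen with earlier results of these data known. The labels name samples and not litters or cages, so p-values measure the spread between these samples. The values of 1 of the marker genes are not reported here singly.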

Additional observations from a re-analysis of the deposited data

Results flagged for a closer look

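In 5 of 84 groups of 5 values examined (each of the 40 genes, Thrb and the total count, in each genotype), 1 mouse stood far from the other 4, where chance gives about 4.2. For Ccnd1, WT mouse 1 was low at 16.1 normalized CPM, with the other WT mice between 31.6 and 34.4. For Ccne2, Thrb hep-/- mouse 2 was high at 2.59, with the others between 1.03 and 1.39. For Pcna, WT mouse 5 was high at 24.6, with the others between 18.95 and 20.3. For Myc, Thrb hep-/- mouse 5 was high at 51.3, with the others between 2.12 and 7.95. The total count of Thrb hep-/- mouse 2 was low at 27779196, with the others between 28441288 and 28590704.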

How the results depend on the processing

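Over all genes tested, 499 were past the threshold, 885 with DESeq2 and 222 to 665 with 1 mouse left out (fewest without Thrb hep-/- mouse 3, most without Thrb hep-/- mouse 1). Among the genes described, 2 were called, 5 with DESeq2 (Ccnd2, Ccnd3, Mcm4, Mcm6 and Mdm2) and 0 to 2 with 1 mouse left out. The count was 0 without WT mouse 2, 4 or 5 or Thrb hep-/- mouse 3. Without WT mouse 1 it was Mcm4 alone, without Thrb hep-/- mouse 1 Mdm2 alone, and without Thrb hep-/- mouse 2 Ccnd2 and Mki67. The median log2 fold change lay between -0.0546 and 0.0732 with 1 mouse left out, against 0.02 with all mice, with the lowest value without Thrb hep-/- mouse 4. With all mice kept, it was -0.0497 without the filter and -0.041 with filterByExpr. Mcm6 kept its sign in 16 of 16 alternatives and was called in 8, Ccnd2 in 16 and 7, and Thrb in 16 and 16. Signs of single named genes turned only with 1 mouse left out: Ccnd1 ranged from -0.38 to 0.17, Cdk1 from -0.32 to 0.0408, Ccne2 from -0.16 to 0.23, E2f8 from -0.10 to 0.37 and Myc from -0.83 to 1.16. The cause was not tested.

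With the replicate number as a block, 348 genes and 2 of those described were called, Mcm5 (adjusted p = 0.117) and Mcm6 (0.102), while Ccnd2 had 0.258 and Apaf1 0.224. Same-numbered mice correlated at -0.20 to 0.01 and 0 of 5 correlated best with their own number. These correlations show no strong pattern shared by same-numbered mice. They cannot tell whether a litter, cage or batch links them. The 8 genes below the filter had between 1 and 38 counts per library, which limits what could be detected in them at this depth.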

Other observations

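Thrb hep-/- mouse 5, which held the highest Myc and Gadd45a values of all mice, also held the highest Gadd45g, a stress-induced relative of Gadd45a named here after its values were seen. Gadd45g measured 8.40, 4.16, 23.2, 19.1 and 6.81 normalized CPM in WT and 49.4, 6.11, 6.52, 7.32 and 64.1 in Thrb hep-/- mice, so that mice 1 and 5 of that group stood above all others. The same mouse 5 held the lowest Ccnd1 and Cdkn1a values, 10.5 and 1.10. The summed level of 12 immediate early genes in it was 165.5 CPM, within the range of 151.5 to 200.1 over the Thrb hep-/- mice.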
